A study of Homo sapiens with 2 samples.

Results

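The region described here is a stretch of 749 nt in human 28S rRNA, a large-subunit RNA of the ribosome, at about expansion segment ES27L. In the deposited numbering it begins 3 nt before position 2905 and ends 8 nt past position 3642. Its members were taken by position alone. It holds 216 of the 5047 rRNA positions listed in the deposited table, and 533 positions of the stretch are not listed. All listed positions have at least 5 reads in at least 1 of the libraries. The 2 libraries came from A549, a human lung carcinoma cell line of epithelial type. Mock cells received Lipofectamine only, and the treated cells were transfected for 1 h with 1 µg/mL of poly I:C, a double-stranded RNA made by synthesis. RNA ends that carry a 2′,3′-cyclic phosphate were joined to an adapter by the ligase RtcB, amplified and sequenced, so that a read count is a count of such ends at a position.

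Expansion segments are insertions in eukaryotic rRNA that bacterial rRNA lacks. ES27L is among the longest of the large subunit. In structures of eukaryotic ribosomes it is a flexible, solvent-exposed arm that can swing towards the exit of the peptide tunnel, where it is known to hold factors that act on new proteins. Cyclic phosphate ends are made by several endoribonucleases, among them RNase L, which double-stranded RNA activates through the OAS enzymes, and also by the chemical breakdown of RNA. Neither library came from cells without a nuclease, so no end was assigned to an enzyme. The table holds no annotation of rRNA structure and no rRNA sequence was used here. The name ES27L therefore follows the numbering alone and was not checked.

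The listed 18S and 28S reads came to 3079346 for mock and 3764202 for poly I:C, and the region held 26430 and 62795 of them. Values are scaled to these sums, as reads per 1000000 listed reads (RPM), and folds are treated over mock. Each condition is 1 library, so there is no replicate check and no test between conditions. The 95% intervals are exact for independent reads and cover counting error only, not spread between samples. Reads were amplified by PCR and could not be counted as molecules, so the intervals may be too narrow even for counting error.

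The ES27L region held few cyclic phosphate ends in mock cells and a set of strong additional ends in the treated cells. It made up 0.858% (95% exact binomial interval 0.848 to 0.869) of the mock reads and 1.67% (1.66 to 1.68) after poly I:C, which is 1.94-fold (1.92 to 1.97). By the same measure the whole of 18S rRNA stood at 1.46-fold (1.46 to 1.47). The region's value is a mean over opposite parts. The 15 positions from 3053 to 3067 had 82 reads in mock cells and 31064 after treatment, or 310-fold (250 to 390). The stretch that runs from 2 nt before position 3053 to 3 nt past position 3067 held 49.5% of the treated reads of the region. Without this stretch 26348 and 31703 reads were left, or 0.984-fold (0.968 to 1.00), which turned to 1.15-fold scaled to 28S reads and 1.22-fold scaled by the median ratio.

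The opposite part consists of the 3 most frequent mock positions, namely 3269, 3399 and the region's first position. They held 75.6% of the region's mock reads and were jointly 0.649-fold (0.636 to 0.663). Without these 3 the region stood at 5.95-fold (5.80 to 6.11). Without both sets it stood at 2.04-fold (1.98 to 2.10), on 6369 mock and 15848 treated reads. For comparison, 28S rRNA outside the region summed to 0.845-fold (0.844 to 0.847), and to 0.918-fold without its most frequent mock position. Leaving out positions picked by their mock reads tends to raise a ratio. The trimmed values of the region are thus a description and are not matched to the sum outside it.

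**Figure D1:**
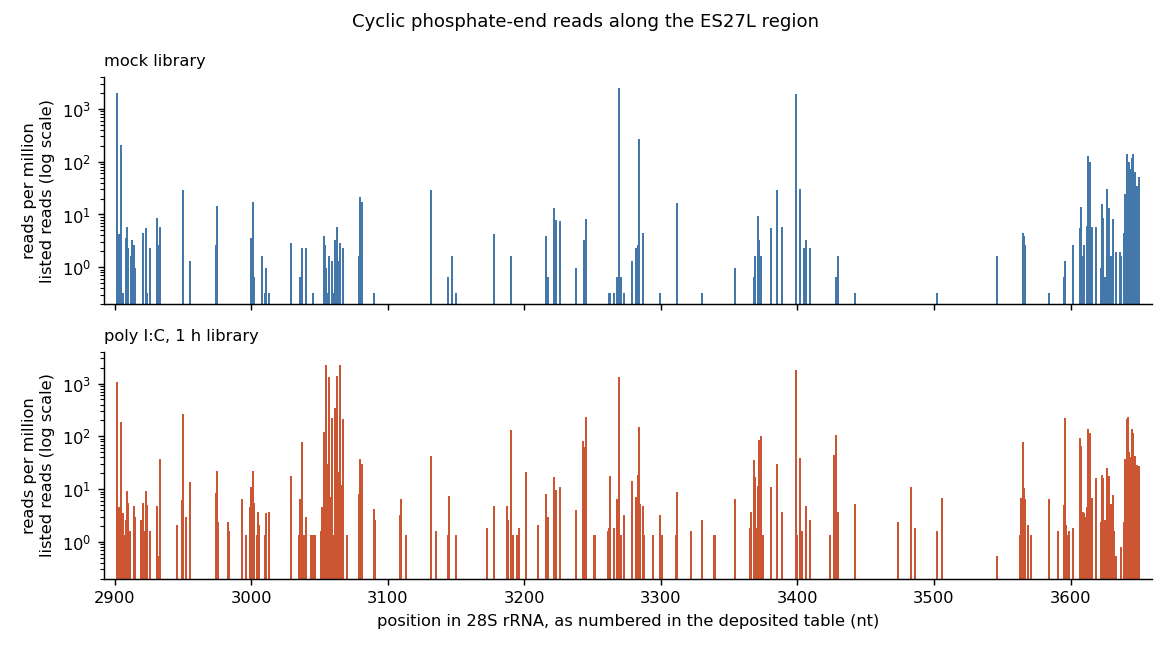
RPM (log scale) at each listed position of the ES27L region, in the mock library above and the poly I:C library below. Each line is 1 position. The first position, 3269 and 3399 stand out in both libraries, and the group from 3053 to 3067 stands out after poly I:C, where it reaches 2244 RPM.

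The strongest ends of the treated cells lay in the group from 3053 to 3067, in which every position was listed. Position 3055 had 3 mock reads against 8446 after treatment, more than any other position of the region in that library. Position 3057 had 5 against 4962, and position 3059 had 4 against 852. Position 3061 had 10 against 1292, position 3063 had 18 against 5340, position 3065 had 9 against 8409, and position 3067 had 7 against 793. These 7 odd positions were thus nearly empty in mock cells and the main ends of the group after treatment. Their folds ran from 92.7 (44.8 to 231) at position 3067 to 2303 (788 to 11170) at position 3055.

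The ends in this group lay at every second position. The 6 even positions between 3055 and 3067 had from 0 to 4 mock reads. After treatment they had 115 reads at position 3056, 27 at 3058, 5 at 3060, 49 at 3062, 81 at 3064 and 46 at 3066. Each of the 7 odd positions exceeded both of its neighbours in the treated cells, and the larger neighbour held between 0.963% (at 3065) and 5.80% (at 3067) of its reads. The odd positions from 3055 to 3067 summed to 56 mock and 30094 treated reads, or 440-fold (338 to 582). The even ones summed to 6 and 323, or 44.0-fold (20.0 to 121).

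Odd positions carried 98.9% (98.8 to 99.1) of the treated reads from 3055 to 3067 and 90.3% (80.1 to 96.4) of the 62 mock reads there. The uneven share was thus seen in both libraries, in the mock library on few reads and at a parity picked from the treated one. In mock cells 6 of the 7 odd positions exceeded both neighbours, while position 3055 had 3 reads against 8 at position 3054. Outside the stretch from 2 nt before position 3053 to 3 nt past position 3067, 101 odd positions of the region held 19541 treated reads. The 97 even positions there held 12162. The odd sum includes positions 3269 and 3399, with 5063 and 6678 treated reads, and the even sum includes the region's first position, with 4114. Both sums rest largely on these single positions, so their gap is not read as an alternation.

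**Figure D2:**
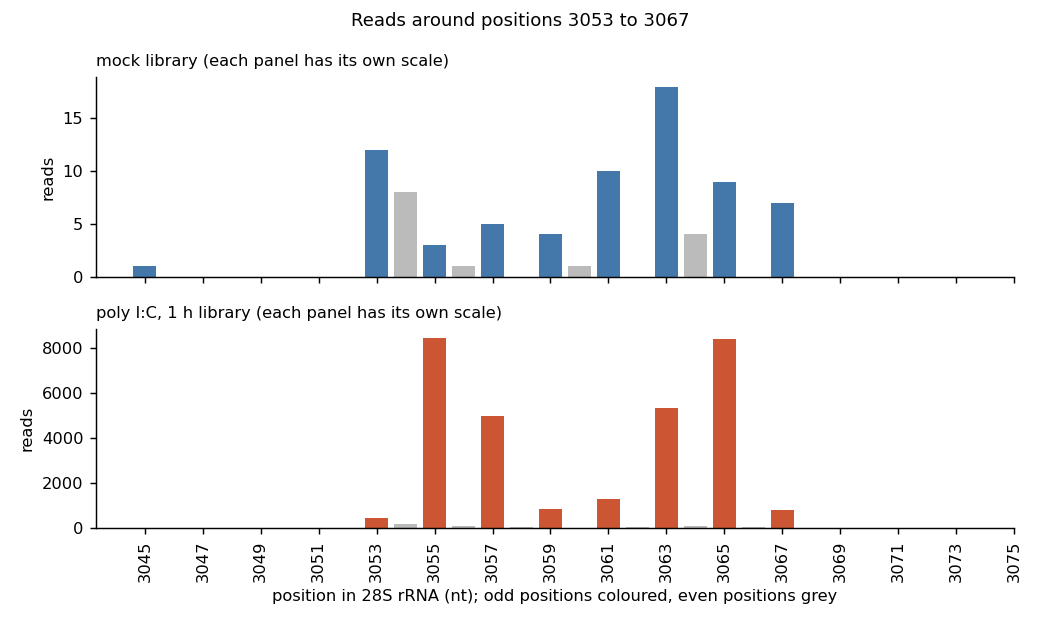
Reads per position (y axis, linear, with a separate scale for each library) around the group from 3053 to 3067 of 28S rRNA, with odd positions coloured and even positions grey. In the poly I:C library the bars stand at odd positions from 3055 to 3067, up to 8446 reads, while no mock bar exceeds 18 reads.

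The edges of the group were sharp. On its 5′ side, position 3053 had 12 mock and 460 treated reads, or 31.4-fold (17.8 to 61.1). Position 3054 had 8 and 187, or 19.1-fold (9.51 to 44.9), so the alternation was weaker there. Position 3052 had 0 and 17 reads. On the 3′ side the 2 positions after 3067 were not listed, and the one after them had 0 and 5 reads. The next positions with many reads were 3080 and 3081, with 65 and 52 in mock cells and 138 and 114 in treated cells. These were 1.74-fold (1.28 to 2.37) and 1.79-fold (1.28 to 2.54).

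Besides this group, the region held other positions that were nearly silent in mock cells and frequent after poly I:C. A position was compared singly if it had at least 100 reads over both libraries, and positions at or over 10-fold were joined into a cluster where they lay at most 10 nt apart. Of the 216 positions 54 were compared. Of these, 23 were 10-fold higher or more, against 2.84% of all 2750 compared positions of both rRNAs. They formed 9 clusters, 5 of them a single position. None of the 23 had more than 25 mock reads, so each was compared only because it was frequent in the treated cells. They held 0.673% of the region's mock reads (178) and 57.2% of its treated reads (35943). The region has 4.28% of the listed positions, 1.96% of the compared ones and 23 of the 78 positions at or over 10-fold in both rRNAs (29.5%). Since its 23 were admitted through the treated library, these shares are a description and not support.

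The other 8 clusters were spread over the region. Position 3037, which lies 16 nt before position 3053, had 7 mock and 292 treated reads, or 34.1-fold (16.4 to 85.6). Position 3190 had 5 and 497, or 81.3-fold (34.6 to 252), with at most 5 treated reads at either neighbour. Position 3596 had 4 and 827, or 169-fold (65.8 to 622), again as a lone end whose larger neighbour held 2.30% of its treated reads. Lone ends of this kind differ in shape from the group at 3053 to 3067. Position 3565 had 14 and 288 reads, or 16.8-fold (9.87 to 31.2). Position 3607 had 17 and 346, or 16.7-fold (10.2 to 28.9), and position 3608 beside it had 42 and 250, or 4.87-fold (3.50 to 6.92).

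The 3 remaining clusters were made of adjacent or near positions. At 3243, 3244 and 3245 there were 0, 10 and 25 mock reads and 312, 235 and 878 treated reads. Position 3243 was at least 85.1-fold higher if its mock count is set to 3 reads, and the lower 95% limit of the ratio without that floor was 68.8. The 3 positions together were 33.3-fold (23.8 to 48.0). Neighbours shared the reads here, unlike in the group further 5′.

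At 3427 and 3428 there were 0 and 2 mock reads and 167 and 404 treated reads. Position 3427 was at least 45.5-fold higher against the same floor, and position 3428 was 165-fold (45.5 to 1369). The third cluster held positions 3368, 3372 and 3373, with 2, 10 and 5 mock reads and 134, 318 and 389 treated reads. Jointly it was 40.5-fold (25.1 to 69.8), while position 3371, directly before 3372, had 29 and 43 reads, or 1.21-fold (0.740 to 2.01).

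Few mock reads make these folds imprecise. The intervals of positions 3055, 3056, 3368 and 3428, with 3, 1, 2 and 2 mock reads, span more than 10-fold. At position 3056 the 94.1-fold value has the limits 16.6 and 3748. The order of such positions by fold is not settled, and the interval of position 3055 overlaps those of 3057 (348 to 2501) and 3065 (402 to 1672). Their treated reads are better determined. By these, positions 3055 and 3065 led, followed by 3399, 3063, 3269, 3057, the region's first position and 3061.

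The 5 most frequent ends of the region in mock cells had scaled folds below 1, of which 3399 and 2905 depend on the scaling. Position 3269 led the mock library with 7795 reads and had 5063 after treatment, or 0.531-fold (0.513 to 0.551). Position 3399 had 6004 and 6678, or 0.910-fold (0.879 to 0.942), and the direction turned to 1.13-fold under scaling by the median ratio of all compared positions. Positions 2905 and 3646 also turned above 1 under that scaling. Scaled to 28S reads, positions 3399 and 2905 turned as well, to 1.06-fold and 1.05-fold. Positions 3269 and 3399 were isolated ends. At 3269 the larger neighbour held 2 mock and 24 treated reads, and at 3399 neither neighbour had more than 5 reads in either library. Position 3284 had 812 and 578 reads, or 0.582-fold (0.522 to 0.649). Position 2905 had 648 and 716, or 0.904-fold (0.812 to 1.01). The 10 most frequent positions of each library shared 3, the same 3 that led the mock reads.

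The region starts beside the most frequent end of the whole table. The position directly before it had 581421 mock and 446484 treated reads, or 0.628-fold (0.626 to 0.631). The first position inside had 6180 and 4114, or 0.545-fold (0.523 to 0.567), which is 1.06% and 0.921% of the reads directly before it. Whether these reads belong to the larger end was not tested. With both bounds moved inward by 10 nt the region stood at 2.61-fold. At the other bound, the last position had 155 and 104 reads, or 0.549-fold (0.424 to 0.708). The first position past it had 163 and 92, or 0.462-fold (0.354 to 0.600), so counts ran on across that bound.

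The last 50 nt were the most densely listed, with 36 listed positions. The last 11 positions together had 2570 mock and 3530 treated reads, or 1.12-fold (1.07 to 1.18), but neighbours in this block went opposite ways. Position 3641 had 424 and 799 reads, or 1.54-fold (1.37 to 1.74), and position 3642 had 234 and 882, or 3.08-fold (2.67 to 3.58). Directly after them, position 3643 had 304 and 190, or 0.511-fold (0.424 to 0.615), and position 3644 had 225 and 156, or 0.567-fold (0.459 to 0.699). Positions 3645 and 3646 had 365 and 429 mock reads and 511 and 441 treated reads, at 1.15-fold (0.999 to 1.31) and 0.841-fold (0.735 to 0.963). Further 5′, positions 3613 and 3614 had 388 and 306 mock reads and 509 and 440 treated reads. They lay near 1, at 1.07-fold (0.939 to 1.23) and 1.18-fold (1.01 to 1.37).

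By the rule of size, 27 of the 54 compared positions were 2-fold higher or more after poly I:C, against 8.18% of all compared positions. None of the 54 was at 0.5-fold or less, against 10.1% of all. The 4 positions between 2-fold and 10-fold, singled out after their values were seen, were 2933, 3608, 3642 and one that lies 17 nt past position 2933. The last of these had 89 and 1002 reads, or 9.21-fold (7.41 to 11.6). Position 2933 had 18 and 143, or 6.50-fold (3.97 to 11.3). The median log2 ratio was 1.23 over the 54 positions and -0.31 over all compared positions. A position with few mock reads was compared only if it was frequent after poly I:C, so these figures describe the libraries and are not taken as support.

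The higher counts lay at positions with few mock reads. Of the 38 compared positions with under 100 mock reads, 26 were 2-fold higher or more, against 19.1% of all positions chosen in that way. Such positions reach 100 reads only with their treated reads, and the 2 sets were not matched for mock reads. This contrast is therefore a description and not support. Of the 16 with at least 100 mock reads, a filter that does not use the treated library, position 3642 alone was 2-fold higher or more, against 3.98% of all such positions. Summed with its neighbours at 1 nt it stood at 1.59-fold and lost the call, while position 3641 entered it at 2.03-fold. That share of 6.25% is 1 position and is near the background. The 16 positions together had 24571 and 21453 reads, or 0.714-fold (0.701 to 0.727), and 11 of them were below 1. Under scaling by the median ratio 7 were below 1 and the joint value was 0.886-fold (0.870 to 0.902). Scaled to all listed reads, the median ratio over all compared positions was 0.807, so values below 1 are not particular to the region.

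**Figure D3:**
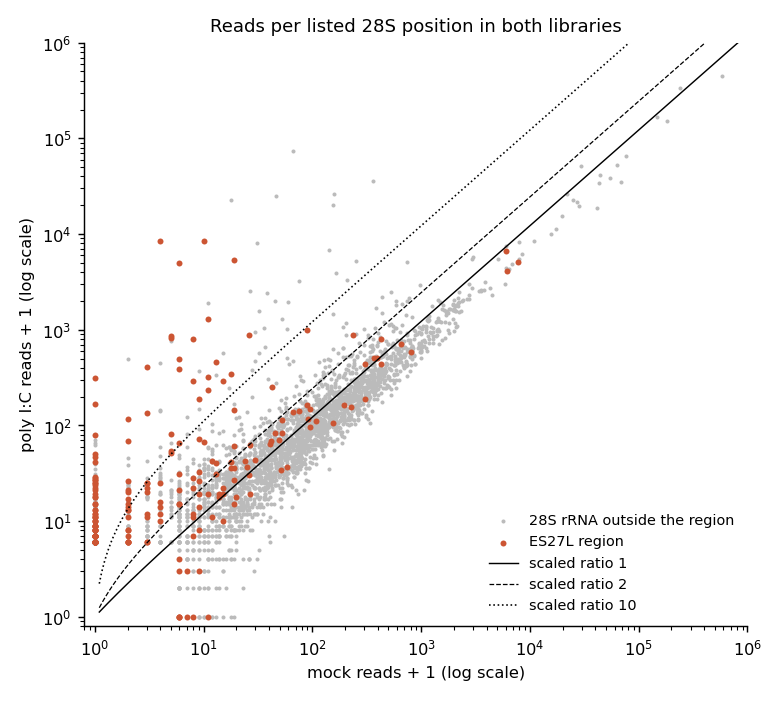
Poly I:C reads plus 1 against mock reads plus 1 at each listed 28S position (both axes log scale), with the 216 positions of the ES27L region coloured and the 3141 other 28S positions grey. The lines mark scaled ratios of 1, 2 and 10. The 16 region positions with at least 100 mock reads lie between ratios of 0.511 and 3.08, and the 23 compared positions past ratio 10 lie at 25 or fewer mock reads.

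The 162 listed positions that were not compared had 749 and 2731 reads, or 2.98-fold (2.75 to 3.24). The corresponding positions of 28S rRNA outside the region summed to 0.999-fold (0.982 to 1.02). Of the 162, 77 had 0 mock reads and were listed only through the treated library, so their sum is a description and not support. Of the 216 listed positions, 79 had 0 mock reads (36.6%), against 8.26% of all listed positions. These 79 held from 5 to 312 treated reads with a median of 7. Among them, below 100 reads, position 3201 had 79 treated reads and position 3483 had 41, at least 21.5-fold and 11.2-fold higher against the floor. Another 6 positions of the region (2.78%) had 0 treated reads, with from 5 to 10 mock reads, against 1.62% of all listed positions. Before any scaling, 190 of the 216 positions had more treated than mock reads, against 55.7% of all listed positions. A position enters the table through either library, so these shares depend on the minimum of 5 reads. The median mock count was 3 in the region and 55 over all listed positions. Many positions of the region were thus listed only through the treated library, and these shares are a description and not support.

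Set beside its surroundings, the region was sparse. The stretches of equal length directly before and after it had 556 and 614 listed positions, which is 74.2% and 82.0% of their length against 28.8% in the region. The longest runs without a listed position in the region were the 39 nt from 3507 to 3545 and the 31 nt from 3443 to 3473. In the mock library the flanks held 28.2% and 10.8% of all listed reads, against 0.858% in the region. Of the compared positions, 22 of 268 in the 5′ flank and 39 of 329 in the 3′ flank were 2-fold higher or more (8.21% and 11.9%), and 6 and 7 were past 10-fold. Summed over all their positions the flanks stood at 0.697-fold (0.695 to 0.699) and 1.35-fold (1.34 to 1.36). Each rests largely on its most frequent position, and without that position they stood at 0.836-fold and 1.86-fold. With 1 library per condition the difference between the region and its flanks has no test.

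In consecutive windows of 50 nt, 10 of the 15 windows of the region were 2-fold higher or more, against 23.4% of all 141 windows of both rRNAs. At 10-fold or more there were 5, against 7.80%. No read minimum was set for windows. The intervals of those from 3101 to 3150 (1.66 to 2.69) and from 3501 to 3550 (1.92 to 13.5) reach below 2. Positions listed only through the treated library enter these sums, so the window counts are a description and not support. Within the region, the window that holds the group from 3053 to 3067 led at 125-fold (109 to 144), and the highest window outside it stood at 157-fold. The windows from 3151 to 3200 and from 3551 to 3600 followed at 26.0-fold (16.3 to 44.2) and 25.8-fold (18.9 to 36.1), on 18 and 41 mock reads. The window from 3451 to 3500 had 0 mock and 57 treated reads, which the floor makes at least 15.5-fold. The one from 3201 to 3250 stood at 10.1-fold (8.46 to 12.0). Windows past 10-fold thus lay on both sides of position 3269. Below 1 were only the windows that hold the region's first position and position 3269, at 0.723-fold (0.699 to 0.748) and 0.567-fold (0.548 to 0.586). The window of position 3399 was at 1.04-fold (1.01 to 1.08), the one from 3301 to 3350 at 1.09-fold (0.746 to 1.59) on 52 mock reads, and the last one at 1.25-fold (1.20 to 1.31).

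**Figure D4:**
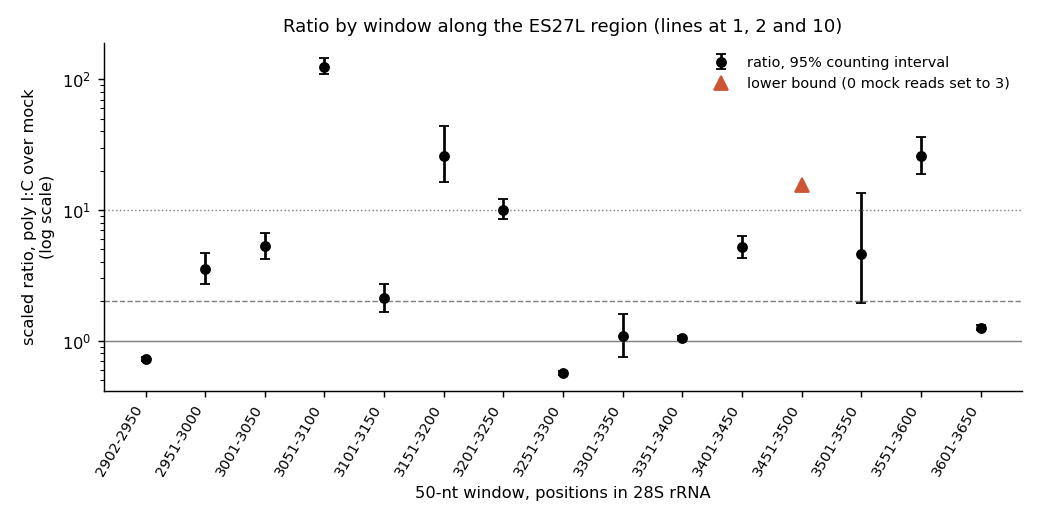
Scaled ratio of poly I:C over mock (log scale) in the 15 windows of 50 nt along the ES27L region. Points carry their 95% counting interval, the triangle is a lower bound for the window with 0 mock reads, and the lines mark ratios of 1, 2 and 10. The window of the group from 3053 to 3067 is highest at 125, and the windows of the first position and of position 3269 lie below 1.

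The reads of the region were spread over more positions in the treated cells. In the mock library 2 positions held 50% of the region's reads and 5 held 81.1% of them. In the poly I:C library 5 positions were needed for 50%, the 5 most frequent held 54.0%, and 29 were needed for 90%, against 12 in the mock library. Across the 216 positions, log2 of the RPM plus 1 had Pearson's r = 0.651 and Spearman's rho = 0.628 between the libraries. The same measures were 0.906 and 0.913 over the 556 positions of the 5′ flank, and 0.854 and 0.899 over the 614 positions of the 3′ flank. These correlations are across positions of 1 pair of libraries, which share the assay and the RNA molecule, and lower counts in the region add counting noise to its values.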

How the data were processed

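Counts were deposited by the authors as reads per position of 18S and 28S rRNA in 2 libraries. The headers name reads and do not mention normalisation or pooling. Per the labels' protocols, RNA was ligated with RtcB, reverse transcribed, circularised and amplified. The build hg19 is named in the submitters' processing notes. Not given in the sources used here are the aligner, the counting step, the rRNA reference and the numbering.

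The region runs from 28S position 2902 to 3650, its flanks from 2153 to 2901 and from 3651 to 4399. RPM are counts per 1000000 listed reads of a library (Python 3.11.15, scipy 1.17.1). Folds carry exact conditional binomial (Clopper-Pearson) intervals at 95%, and shares exact binomial ones. For a position or window at 0 reads a floor of 3 reads gives a bound, which is not the 95% limit. The calculation was tested on simulated data. Positions were compared at 100 reads or more over both libraries, with "higher" from 2-fold and "lower" from 0.5-fold. Windows start at position 2901, whose own reads were counted in the window before it. Named positions are, among those compared, the 15 highest and 5 lowest ratios, the 10 most frequent of each library, the positions at the bounds, and clusters at or over 10-fold. The region, the groups of positions and these rules were chosen with earlier results of these data known. Alternatives were other scalings, read minimums, thresholds, bounds, windows and summing of neighbours.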

Additional observations from a re-analysis of the deposited data

How the results depend on the processing

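What was summed moved the region's ratio. It was 2.27 when scaled to 28S reads, 2.41 under scaling by the median ratio and 2.00 when the 10 most frequent positions of either library were left out of the totals. It was 2.61 with bounds moved inward by 10 nt and 0.984 (0.968 to 1.00) without the stretch around the group from 3053 to 3067. In settings chosen after seeing the data it was 1.15 and 1.22 without the stretch under 28S and median scaling, and 5.95 without the 3 most frequent mock positions. The 27 of 54 higher positions (50%) became 65 of 115 (56.5%) at a minimum of 20 reads, 7 of 13 (53.8%) at 1000 reads, 108 of 216 (50%) with no minimum and 49 of 97 (50.5%) with neighbours summed. The count moved more than the share in these settings, but all of them admit positions through the treated library. Over all positions these shares were 8.18%, 12.2%, 12.1%, 15.2% and 8.34%. In settings chosen after seeing the data the share was lower. It was 17 of 44 (38.6%) without that stretch, against 7.85% of all positions. At 100 mock reads, a minimum that does not use the treated library, it was 1 of 16 (6.25%), against 3.98%. The 0 lower positions became 10 of 216 with no minimum, a setting in which lower positions were not counted over all positions. The other alternatives left both counts within 1.5 times. Without the stretch the 5 most frequent positions held 56.0% of the treated reads. The share of positions at least 2-fold higher became 19.1% in the 3′ flank under scaling by the median ratio and 9.67% in 18S rRNA at 20 reads. Scaling by the median ratio raises every ratio 1.24-fold, a log2 shift of 0.31. Among the 32 named positions it turned the direction at 3, namely 2905, 3399 and 3646. Scaling to 28S reads turned it at 2, namely 2905 and 3399. Summing with neighbours turned it at 2, namely 3643 and 3645, and moved 3641 into and 3642 out of the 2-fold call. Depth limits positions with few mock reads. Where construction does not show the cause, the cause was not tested. Bases around positions, a planned comparison, were not read, since no rRNA sequence was used here. No paired analysis was possible because there is a single library in each group, and none could be left out.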
